A study of Mus musculus with 3 samples.

Results

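The genes described here are 34 markers of the dividing cell, 17 of S phase (called S genes below) and 17 of G2 and mitosis (M genes), out of 19050 gene symbols in the tables. They were taken by symbol, and all 34 are present. Cells in S phase copy their DNA: the Mcm helicase, loaded on origins before S phase, is activated there, polymerases and the sliding clamp follow, and nucleotides and histones are supplied. Cells in G2 and mitosis then switch on Cdk1 with its cyclins, the mitotic kinases, the spindle and the centromere proteins, and the anaphase-promoting complex ends the cycle. The mammary epithelium has a basal layer with contractile cells and a luminal layer with progenitor and hormone-responsive cells, and all of these compartments are renewed by division in the adult gland.

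Transcripts of single cells were counted in live mammary epithelial cells of female FVB/NJ mice aged 10 weeks, sorted on the dye SytoxBlue and on labelled antibodies (Ter119, CD45, CD31, EpCAM, CD49f), in 3 droplet libraries of 1 group. No genotype change or treatment is named. The number 4 glands of 4 mice were pooled, and the 3 labels describe this in identical terms, so a shared or separate origin of the libraries cannot be read from them. The spread between libraries, on which all p-values below rest, may thus be technical. Each captured transcript carried a unique molecular identifier (UMI), and the libraries held 18584156, 27220670 and 30984706 UMIs in 6691, 9034 and 11120 barcodes. Library 1 had a median mitochondrial share of 2.84%, against 1.79% and 1.88% in libraries 2 and 3. Pairs of libraries shared 77 to 146 barcodes, at most 1.93% of the smaller library.

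After filtering, 24352 cells remained. A cell was put in a class when the UMI sum of that class's genes reached at least 5 and was at least 3 times each other sum. The basal sum used the keratins Krt5 and Krt14 and the smooth-muscle actin Acta2, the luminal progenitor sum used Csn3, Elf5, Kit and Aldh1a3, and the hormone-responsive sum used Prlr, Areg, Pgr and Esr1. This gave 9763 basal, 7952 luminal progenitor and 2530 hormone-responsive cells, and left 4107 cells unclassified. The class genes are lineage genes and include none of the 34. Median depth differed between the classes: 1721 to 2172 UMIs per basal cell, 2828 to 3777 per luminal progenitor cell and 3332.5 to 3826 per hormone-responsive cell.

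Most M genes and 6 S genes were higher in luminal progenitor than in basal cells, with a larger median difference over the M genes than over the S genes. UMIs were summed per library and class, with levels given as CPM (TMM-normalised UMIs per 1000000), and compared in edgeR (quasi-likelihood test, library in the model). Calls required both a Benjamini-Hochberg adjusted p under 0.05 and a log2 fold change of 1 or more in size. In luminal progenitor over basal cells, 6 of 17 S genes and 14 of 17 M genes were called higher and 0 of either set lower, where 14% of the 12643 genes tested were called higher, 17.3% lower and 31.3% were called in either direction. The median log2 fold change was 0.60 over the S genes and 1.32 over the M genes, beside 0.08 over all genes tested. All 34 genes passed the filter on low counts. A gene could pass it through the sums of a single class, as Aurkb did through luminal progenitor cells, where it was then called higher. In such sums, fewer dividing cells and less RNA per dividing cell cannot be told apart.

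**Figure D1:**
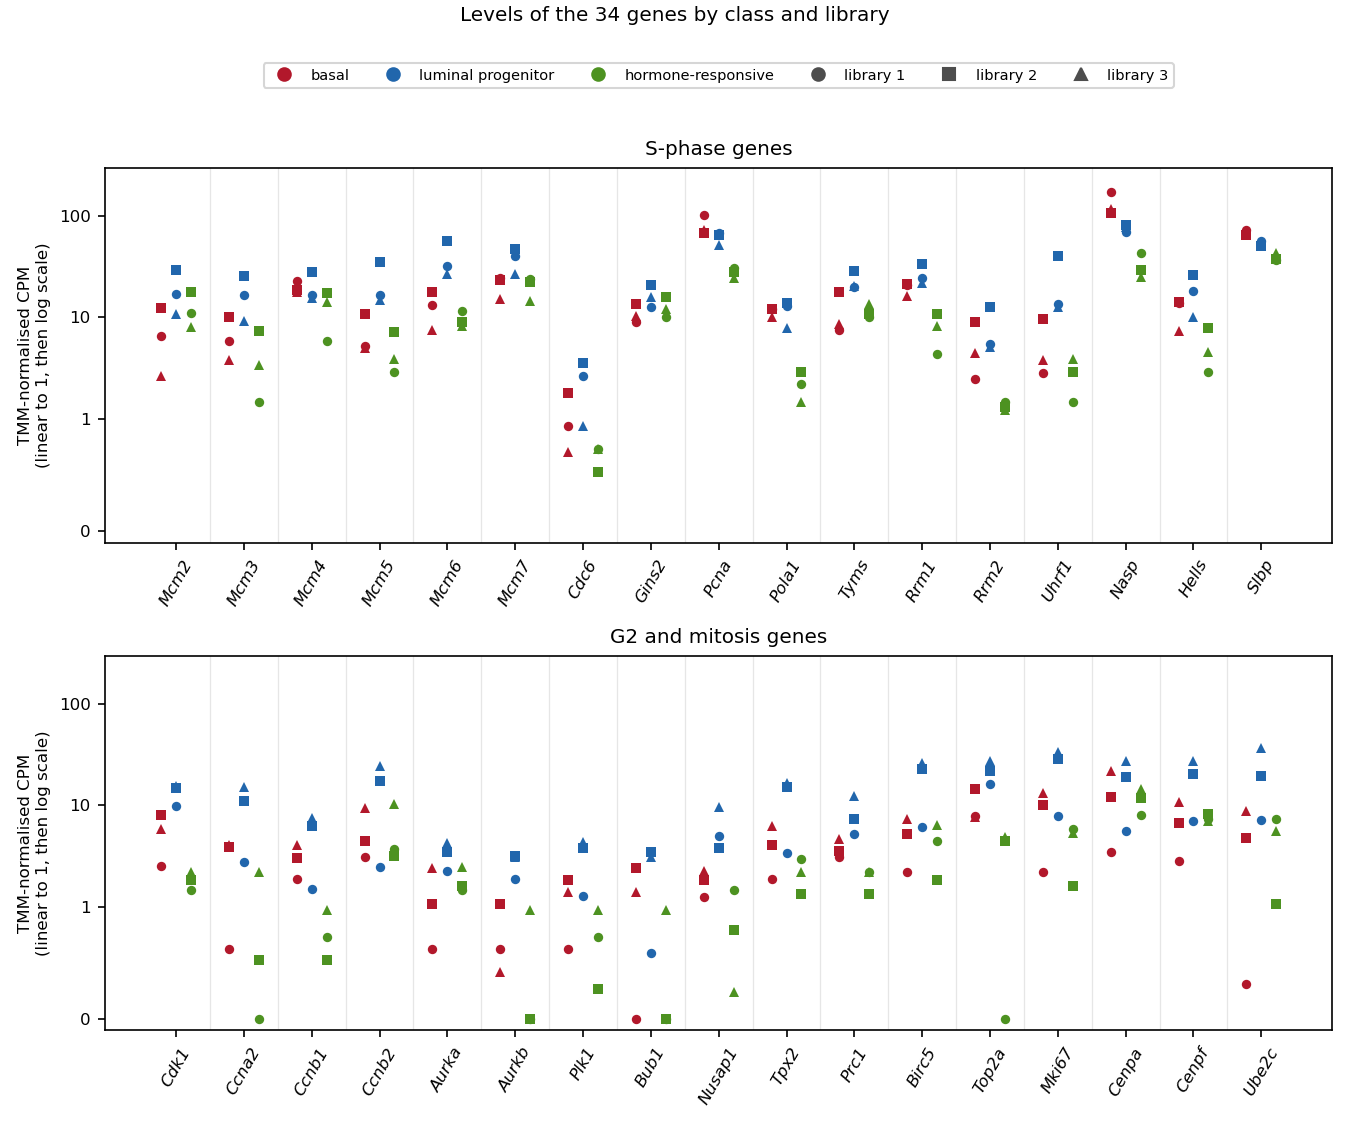
TMM-normalised CPM (vertical axis, linear to 1 and logarithmic above) of the 17 S genes (top) and 17 M genes (bottom), 1 point per library and class; colours are classes and shapes are libraries. The M genes of library 1 (circles) lie lowest for 16 of 17 genes in luminal progenitor cells, and Nasp, Pcna and Slbp have the highest means over libraries of the S genes in each class.

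The replicative helicase Mcm2 to Mcm7 unwinds DNA at the fork, and 4 of its 6 subunits were called higher in luminal progenitor cells. Mcm5 had the largest difference of the group, with 5.29, 10.8 and 5.05 CPM in basal cells of libraries 1, 2 and 3 and 16.5, 35.4 and 14.9 CPM in luminal progenitor cells. The lowest luminal progenitor library thus lay above the highest basal one, and the log2 fold change was 1.64 (SD of the 3 within-library log2 ratios 0.09; edgeR adjusted p = 4.07e-05). Mcm6 rose by 1.59, Mcm2 by 1.47 and Mcm3 by 1.37 on the log2 scale. Mcm4, a subunit of the same ring, had the smallest difference, with 22.7, 18.5 and 18 CPM in basal and 16.8, 28.4 and 15.4 CPM in luminal progenitor cells. Its groups overlapped, and the within-library log2 ratios were -0.43, 0.61 and -0.22. Mcm7 lay between, at 0.86 on the log2 scale, under the fold required for a call.

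None of the 4 genes of origin loading and the fork was called. Cdc6, which loads the helicase on origins, was scarce at 0.93, 1.81 and 0.70 CPM in basal and 2.66, 3.59 and 0.94 CPM in luminal progenitor cells, which is 3 to 27 UMIs a sum. Its log2 fold change was 0.93 (SD 0.48; edgeR adjusted p = 0.0918). The catalytic subunit of DNA polymerase alpha, Pola1, was level between the classes at 12.1, 12 and 10.2 CPM against 13.0, 13.9 and 7.87 CPM. Pcna, the sliding clamp, was lower in luminal progenitor cells in all 3 libraries, with a log2 fold change of -0.38.

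Of the 3 enzymes of nucleotide supply, thymidylate synthase (Tyms) was called higher. It held 7.47, 17.9 and 8.56 CPM in basal and 20.1, 29.0 and 20.4 CPM in luminal progenitor cells, without overlap, and its log2 fold change of 1.04 lay just past the fold required (SD 0.37; edgeR adjusted p = 0.00534). Rrm1, the large subunit of ribonucleotide reductase, had the smallest difference, at 20.9, 21.2 and 16.4 CPM against 24.5, 34 and 22.1 CPM. The genes of chromatin and histone supply split. Uhrf1, which carries DNA methylation marks onto the new strand, had 2.80, 9.61 and 3.79 CPM in basal and 13.5, 40.7 and 12.7 CPM in luminal progenitor cells, a log2 fold change of 1.99 (SD 0.25; edgeR adjusted p = 0.000507). Slbp, which binds the stem-loop of histone mRNAs, was at 73.5, 65.6 and 69.3 CPM in basal and 57.3, 50.2 and 52.5 CPM in luminal progenitor cells. That is lower in every library, by a log2 fold change of -0.38 (SD 0.02), and not a call. The histone chaperone Nasp likewise was lower in all 3 libraries, at -0.76.

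Nasp, Pcna and Slbp therefore went against the other S genes: 12 of the 17 S genes were above 0 in all 3 libraries, and these 3 were below 0 in all 3. They were also the most abundant S genes in basal cells, with means of 133, 81.3 and 69.5 CPM, and together they made up 54.5% to 69.6% of S UMIs in basal cells against 35.8% to 49.0% in luminal progenitor cells. Summed levels of the S genes below are given with and without them, and ratios of S to M UMIs with all 17 S genes only.

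In each role group of 4 M genes, at least 3 were called higher. Among Cdk1 and its cyclins, Ccna2, the cyclin of late S phase and G2, had 0.62, 3.90 and 4.07 CPM in basal and 2.76, 10.9 and 15.3 CPM in luminal progenitor cells, a log2 fold change of 1.73 (SD 0.22; edgeR adjusted p = 0.0014). The mitotic cyclin Ccnb1 was not called: it held 1.87, 3.04 and 4.07 CPM against 1.48, 6.24 and 7.5 CPM, with a ratio below 0 in library 1 and above it in the other two. Of the mitotic kinases, Aurkb, the catalytic part of the chromosomal passenger complex, rested on 2, 11 and 3 UMIs in basal and 19, 20 and 33 UMIs in luminal progenitor cells. Its log2 fold change was 1.92 (SD 0.54; edgeR adjusted p = 0.0197). The checkpoint kinase Bub1 had 0, 25 and 10 UMIs in basal and 6, 22 and 33 UMIs in luminal progenitor cells and was not called.

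All 4 spindle and cytokinesis genes were called higher. Birc5, the survivin subunit of the passenger complex, held 2.18, 5.23 and 7.30 CPM in basal and 6.10, 22.9 and 25.9 CPM in luminal progenitor cells, a log2 fold change of 1.86 (SD 0.35; edgeR adjusted p = 0.00158). Prc1, which bundles the midzone microtubules, differed least of them, at 3.11, 3.52 and 4.63 CPM against 5.22, 7.33 and 12.4 CPM and a log2 fold change of 1.11. Its groups did not overlap. For chromosome and centromere genes, the proliferation antigen Mki67 had 2.18, 10.1 and 13.3 CPM in basal and 7.88, 28.8 and 33.8 CPM in luminal progenitor cells, a log2 fold change of 1.43 (SD 0.20; edgeR adjusted p = 0.00998). The centromeric histone Cenpa was not called at 0.48, with 3.42, 12.1 and 21.8 CPM against 5.51, 19.0 and 27.2 CPM. Ube2c, the ubiquitin-conjugating enzyme of the anaphase-promoting complex, had the largest fitted difference of all 34 genes: 0.31, 4.76 and 8.84 CPM in basal and 7.09, 19.5 and 36.7 CPM in luminal progenitor cells, a log2 fold change of 2.11 (SD 0.91; edgeR adjusted p = 0.00653). Its basal value in library 1 is 1 UMI. For both Mki67 and Ube2c every library showed the direction, while the groups overlapped because library 1 was low in both classes.

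The M count depended on the setting, and the S count did so less. In cells of at least 2000 UMIs, thinned to that depth, 6 of the 14 M genes were called, 5 were tested and not called (Cdk1 had a log2 fold change of 0.50 in place of 1.28), and Aurka, Aurkb and Plk1 were not tested there; without library 3 the count was 4, without library 2 it was 7, and without the library block it was 7. Mcm3, Mcm5, Mcm6, Uhrf1 and Birc5 were called under every alternative tried. Markers of fibroblasts (6 genes) summed to 101 to 319 CPM in basal, 17.6 to 36.4 in luminal progenitor and 152 to 192 CPM in hormone-responsive cells, where library 1 had Col1a1, Col1a2, Col3a1, Pdgfra and Lum at 0. Immune markers (7 genes) summed to at most 49.9 CPM in any class and library. Schwann markers (4 genes) summed to 195 to 199 CPM in luminal progenitor, 93.5 to 128 in basal and 29.3 to 42.7 CPM in hormone-responsive cells, the class order of the M genes. Pericyte markers (6 genes) summed to 79.5 to 91.6 CPM in luminal progenitor, 31.9 to 37.4 in basal and 72.9 to 105 CPM in hormone-responsive cells, with Kcnj8 at 0 in all 3 libraries of both luminal classes. The part of these markers in the differences was not tested. Leaving out cells with at least 3 detected markers of a non-epithelial type gave the same counts of 6 S and 14 M genes.

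**Figure D2:**
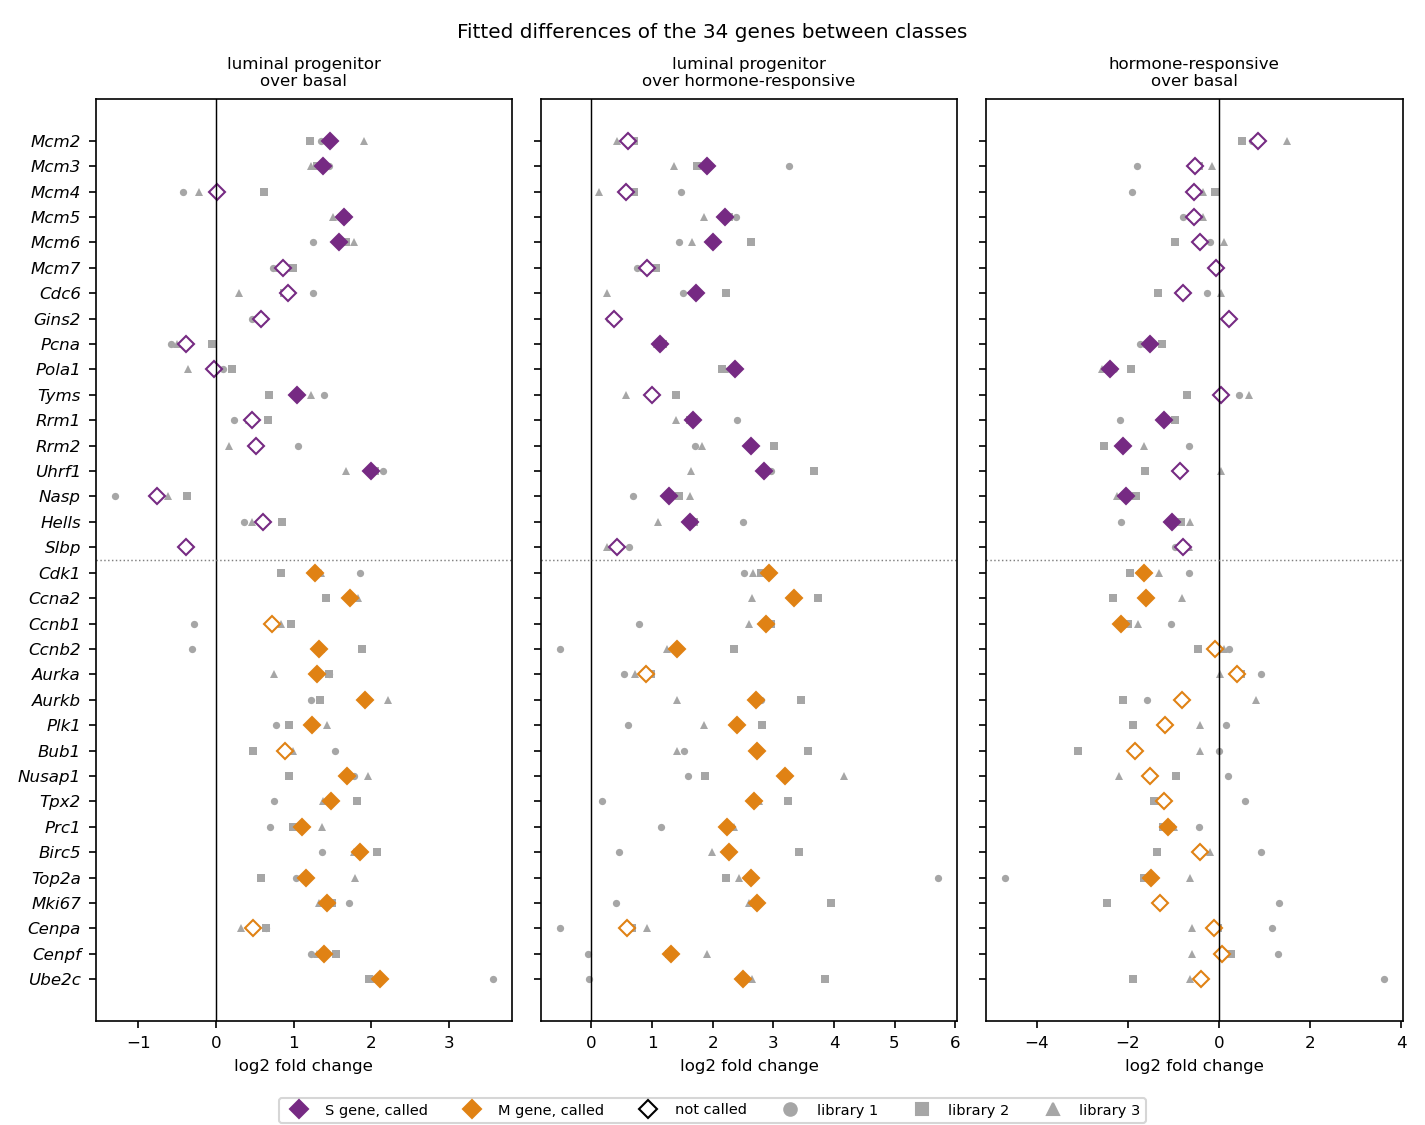
Fitted log2 fold changes (diamonds; filled where called) of the 34 genes in the 3 comparisons of classes, with the 3 within-library log2 ratios in grey; each panel has its own horizontal scale. Against basal cells (left) the called genes all lie above 0, while Nasp, Pcna, Slbp and, at -0.02, Pola1 lie below it. Against hormone-responsive cells (middle) all 34 fitted values lie above 0.

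Further genes of the same phases were also called higher more often than lower. Of 42 other S-phase genes listed, 37 were tested, and 15 were called higher in luminal progenitor cells and 1 lower, with a median of 0.84. The largest differences were those of Ccne1, Wdr76 and Tk1. Cyclin E1 (Ccne1), which drives entry into S phase, went against the rest: it had 4.98, 8.56 and 7.58 CPM in basal and 0.49, 1.09 and 1.03 CPM in luminal progenitor cells, a log2 fold change of -2.99 (edgeR adjusted p = 4.49e-05). Thymidine kinase (Tk1) rose by 2.23 and the chromatin protein gene Wdr76 by 2.43. Of 50 other G2 and mitosis symbols listed, 48 were tested, and 18 were called higher and 0 lower, with a median of 0.84 and Ckap2l (2.17), Cdca3 (2.02) and Cdca8 (1.95) in front. Of all genes tested, 14% were called higher and 17.3% lower.

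Of 17 listed genes of cell-cycle arrest, checkpoints and p53 targets, 16 were tested, with 5 called lower in luminal progenitor cells, 2 higher and a median of -0.57, where 17.3% of all genes tested were called lower and 14% higher. The p53 target Phlda3 held 134, 133 and 116 CPM in basal and 16, 10.6 and 6 CPM in luminal progenitor cells, a log2 fold change of -3.62 (SD 0.58; edgeR adjusted p = 2.51e-06). The Cdk inhibitor gene Cdkn1a (p21) was at 220, 150 and 279 CPM against 40.1, 24.2 and 39.2 CPM. Cdkn1c (p57) had 7.16, 35.4 and 29.5 CPM against 5.81, 0.94 and 1.69 CPM, so that its difference was small in library 1 and large in libraries 2 and 3. The 2 genes called higher were the inhibitor gene Cdkn2c (1.51) and the Cdk1-restraining kinase Wee1 (1.05).

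Hormone-responsive cells were the lowest of the 3 classes in most members. The comparisons share class sums, so their counts are not independent. Luminal progenitor cells exceeded them in 11 of 17 S genes and 15 of 17 M genes called, with 0 called lower; 14.1% of all genes tested were called higher there, 10.4% lower and 24.5% in either direction. The medians were 1.63 over the S genes and 2.64 over the M genes, beside 0.05 over all genes tested. Fitted values of the M genes rest on few molecules, since hormone-responsive cells held 0 to 59 UMIs of any M gene in a library. Aurkb was at 0, 0 and 4 UMIs, Bub1 at 0, 0 and 4 and Ccna2 at 0, 2 and 9.

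Among the S genes, Mcm5 had 2.93, 7.11 and 3.89 CPM in hormone-responsive cells, below every luminal progenitor library, and a log2 fold change of 2.20 (SD 0.27; edgeR adjusted p = 3.06e-05). Uhrf1 was at 1.46, 2.89 and 3.89 CPM, with a log2 fold change of 2.84 (SD 1.03; edgeR adjusted p = 0.00037). Pcna, which leaned to basal cells in the first comparison, was lower here as well, with 30.7, 28.4 and 24.3 CPM against 68.5, 65.0 and 51.7 CPM in luminal progenitor cells. By contrast Mcm2 held 11, 17.9 and 8.01 CPM in hormone-responsive and 17.1, 29.2 and 10.9 CPM in luminal progenitor cells, a log2 fold change of 0.61 that was not a call. Tyms held 10.2, 10.8 and 13.6 CPM, Rrm1 4.39, 10.8 and 8.26 CPM and Slbp 37.3, 37.9 and 43.7 CPM in hormone-responsive cells. Mcm4 was at 5.86, 17.4 and 14.1 CPM there, and Cdc6 at 1, 2 and 3 UMIs. Gins2 (0.37), Slbp (0.41), Mcm4 (0.57), Mcm7 (0.92) and Tyms (0.99) also missed the fold required.

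Of the M genes, Aurka and Cenpa were the 2 not called. Cdk1 had the most even difference, with 1.46, 1.84 and 2.19 CPM in hormone-responsive and 9.85, 14.7 and 15.6 CPM in luminal progenitor cells, a log2 fold change of 2.92 (SD 0.14; edgeR adjusted p = 0.000115). Mki67 held 5.86, 1.58 and 5.34 CPM in hormone-responsive cells. Its within-library log2 ratios were 0.41, 3.95 and 2.59, so that library 1 showed little of the fitted 2.73. Ube2c was at 7.32, 1.05 and 5.59 CPM, Birc5 at 4.39, 1.84 and 6.31 CPM and Cenpa at 8.05, 11.8 and 14.3 CPM in hormone-responsive cells. Prc1 had 3, 5 and 9 UMIs there, and Ccnb1 1, 2 and 4. Ccnb2, Cenpa, Cenpf and Ube2c had ratios below 0 in library 1. Without library 3 the count of M genes called was 5, and without library 2 it was 9.

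The other lists gave 21 of 37 other S-phase genes and 27 of 48 other G2 and mitosis genes higher in luminal progenitor than in hormone-responsive cells, and 0 and 1 lower. Of all genes tested, 14.1% were called higher and 10.4% lower. The repressor gene E2f8, the replication factor gene Mcm10 and cyclin E2 (Ccne2) led the first list, on 1, 3 and 2 UMIs over all hormone-responsive cells. The ratio of CPM for E2f8, from UMIs pooled over the libraries and without TMM, was 18.1, with a 95% counting interval of 3.12 to 726. The folds of Ncapg and the ratio of Ccne1 below were formed likewise. Ncapg, a subunit of condensin, was at 0 UMIs in hormone-responsive cells of all 3 libraries and 68 UMIs in luminal progenitor cells, at least 7.06-fold higher against a floor of 3 UMIs over the group; Ckap2l (3.55) and Bub1b (3.55) followed on the log2 scale. Of 16 arrest and checkpoint genes, 2 were called higher in luminal progenitor cells and 3 lower, beside the same 14.1% and 10.4% of all genes tested. Cdkn2a, which encodes Cdk4 and Mdm2 inhibitors, had 8, 24 and 11 UMIs in hormone-responsive cells and 0, 0 and 2 in luminal progenitor cells. Cdkn2c and the checkpoint kinase Chek1 were called higher in luminal progenitor cells, at 1.97 and 1.94.

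Set against basal cells, hormone-responsive cells were called lower in 6 S genes and 5 M genes and higher in 0, where 20.7% of all genes tested were called lower, 15.2% higher and 35.9% in either direction. The medians were -0.79 and -1.17, beside 0.00 over all genes tested. The 6 S genes were Pcna, Pola1, Rrm1, Rrm2, Nasp and Hells, of which only Rrm1, Pcna, Pola1 and Nasp were called under every alternative tried. Pola1 held 12.1, 12 and 10.2 CPM in basal and 2.20, 2.89 and 1.46 CPM in hormone-responsive cells, a log2 fold change of -2.38 (SD 0.32; edgeR adjusted p = 9.3e-05). Rrm2 had a log2 fold change of -2.12, and Nasp was at 172, 107 and 119 CPM against 43.2, 29.7 and 25.0 CPM, with -2.05. No Mcm subunit was called between these classes, and Mcm2 was higher in hormone-responsive cells in all 3 libraries, by 0.86 on the log2 scale. The 5 M genes were Cdk1, Ccna2, Ccnb1, Prc1 and Top2a. That count was 9 without library 1 and 3 without library 3. Without library 2 it was 0, where 2 of the 15 M genes that passed the filter had an unadjusted edgeR p under 0.05.

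In the further lists, 6 of 37 other S-phase genes were lower and 1 higher in hormone-responsive than in basal cells, as were 9 lower and 3 higher of 48 other G2 and mitosis genes, so the shares called lower did not exceed the 20.7% of all genes tested. Ccne1 led with 160 UMIs in basal and 2 in hormone-responsive cells, a ratio of CPM of 33.8 (95% counting interval 9.21 to 282). E2f8 (31 and 1 UMIs), Mcm10 (37 and 3), Gtse1 (42 and 3) and Ckap2 (135 and 11) came next. For Ncapg the 19 basal UMIs give at least 2.68-fold. Of the 16 arrest genes tested 5 were lower and 2 higher, with Cdkn1c at -4.83, Phlda3 at -2.95 and Cdkn2a at 2.88. Beside them, 20.7% of all genes tested were called lower and 15.2% higher.

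Promoter sequences of members with known motifs of cell-cycle transcription are shown, taken in order of their difference between luminal progenitor and basal cells. RefSeq promoters on the build GRCm38.p6 were matched by symbol for 29 of 34 members. The 100 bases before each start were searched on both strands for TTCGCGC, for TTGGCGC and for TTCCCGC (letters that E2F factors are known to bind), for TTTGAA (the cell-cycle homology region) and for CCAAT (the NF-Y box). The 4 S and 4 M members with a match and the largest difference were taken. Uhrf1 and Ube2c were left out, as their windows overlap an annotated exon. Other M members with larger differences than the M members shown were passed over. Birc5 and Nusap1 had no match, and Aurkb, Ccna2 and Tpx2 had no promoter entry. Each window is upstream of the gene start, outside annotated exons, and printed 5′ to 3′ on the gene's strand with matches in capitals, where ATTGG is CCAAT on the other strand. The helicase genes are Mcm5 (chr8:75109409-75109508, + strand), Mcm6 (chr1:128359706-128359805, - strand), Mcm2 (chr6:88898781-88898880, - strand) and Mcm3 (chr1:20820313-20820412, - strand). The mitotic genes are Mki67 (chr7:135716380-135716479, - strand), Cenpf (chr1:189688087-189688186, - strand), Ccnb2 (chr9:70421555-70421654, - strand) and Aurka (chr2:172370571-172370670, - strand).
Mcm5: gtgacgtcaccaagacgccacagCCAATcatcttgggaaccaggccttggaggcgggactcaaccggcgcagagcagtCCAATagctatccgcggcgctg
Mcm6: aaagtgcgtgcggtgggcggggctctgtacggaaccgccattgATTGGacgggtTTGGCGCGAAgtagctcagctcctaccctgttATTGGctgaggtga
Mcm2: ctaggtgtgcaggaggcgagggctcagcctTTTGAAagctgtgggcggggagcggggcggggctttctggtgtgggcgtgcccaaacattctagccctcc
Mcm3: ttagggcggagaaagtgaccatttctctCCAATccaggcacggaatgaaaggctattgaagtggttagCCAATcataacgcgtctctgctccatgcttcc
Mki67: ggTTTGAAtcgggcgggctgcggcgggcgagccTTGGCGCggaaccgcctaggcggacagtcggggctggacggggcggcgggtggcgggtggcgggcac
Cenpf: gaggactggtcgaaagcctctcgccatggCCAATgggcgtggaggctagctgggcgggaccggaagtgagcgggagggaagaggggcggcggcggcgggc
Ccnb2: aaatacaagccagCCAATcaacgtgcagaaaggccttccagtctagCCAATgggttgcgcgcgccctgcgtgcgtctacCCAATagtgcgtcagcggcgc
Aurka: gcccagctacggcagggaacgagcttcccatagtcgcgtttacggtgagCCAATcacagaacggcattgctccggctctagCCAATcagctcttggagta

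CCAAT stood in 11 of 15 S promoters (73.3%) and 11 of 14 M promoters (78.6%), beside 19.6% of all 27025 promoters and 21.8% of those of protein-coding genes. Ccnb2 carried 3 copies on 1 strand, at 87, 54 and 21 bases before the start. An E2F-type match was found in 4 of 15 S promoters and 1 of 14 M promoters, beside 3.23% of all promoters; in Mcm6 the TTGGCGC and the TTCGCGC of the other strand overlap. TTTGAA stood in 4 of 14 M promoters and 1 of 15 S promoters (Mcm2), beside 5.91% of all. These matches are descriptions of letters, and no binding was measured here.

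Levels of S and M genes did not follow each other across libraries. To set cells at 1 depth, each was thinned to 2000 UMIs, which left out shallower cells: 677, 1764 and 2627 basal, 743, 262 and 449 luminal progenitor and 63, 169 and 191 hormone-responsive cells of libraries 1, 2 and 3. Summed over the M genes, luminal progenitor cells held 63.9 CPM (here UMIs per 1000000 thinned UMIs, without TMM) in library 1 (95% Poisson interval 56.9 to 71.5), 200.1 (184 to 218) in library 2 and 228 (216 to 241) in library 3. Basal cells held 26.9 (19.6 to 36.2), 80.8 (73.2 to 89.0) and 148 (133 to 163), and hormone-responsive cells 32.0 (19.0 to 50.6), 40.2 (31.0 to 51.2) and 66.4 (55.7 to 78.6). Library 1 was thus the lowest of the 3 libraries in luminal progenitor and basal cells, and over all cells 16 of 17 M genes in luminal progenitor and 15 of 17 in basal cells were lowest there. In hormone-responsive cells, where the sum of library 1 is 18 UMIs and its interval overlaps that of library 2, 7 of 17 M genes were lowest in library 1 and 8 in library 2, and 5 were highest in library 1. Intervals here and below cover counting error only.

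The S genes had another order. Their sum was 395, 504 and 336 CPM in luminal progenitor, 466, 422 and 342 in basal and 215, 260 and 206 in hormone-responsive cells of libraries 1, 2 and 3. Without Nasp, Pcna and Slbp it was 211, 323 and 172 in luminal progenitor and 142, 192 and 109 in basal cells. In hormone-responsive cells it was 96.1, 158 and 101 without them. With the 3 genes, basal cells lay above luminal progenitor cells in libraries 1 and 3. The 3 genes were set apart because they were lower in luminal progenitor cells, so the turned order of the remaining sums in libraries 1 and 3 follows from that choice. In library 2 luminal progenitor cells lay above basal cells with all 17 S genes as well. Over all luminal progenitor cells, not thinned and in TMM-normalised CPM, all 14 of the remaining S genes were highest in library 2. In the thinned cells and with all 17 S genes, the ratio of S to M UMIs was 6.18, 2.52 and 1.48 in luminal progenitor cells. It was 17.3, 5.23 and 2.32 in basal and 6.72, 6.48 and 3.10 in hormone-responsive cells. Without Nasp, Pcna and Slbp this ratio was not computed. S UMIs without them, beside M UMIs, were 994 and 301, 890 and 551, and 949 and 1261 in luminal progenitor cells. In basal cells they were 232 and 44, 989 and 416, and 284 and 385. In luminal progenitor and basal cells library 1 was highest in this ratio, and it also had the highest mitochondrial share; the part of cell quality in the ratio was not tested.

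**Figure D3:**
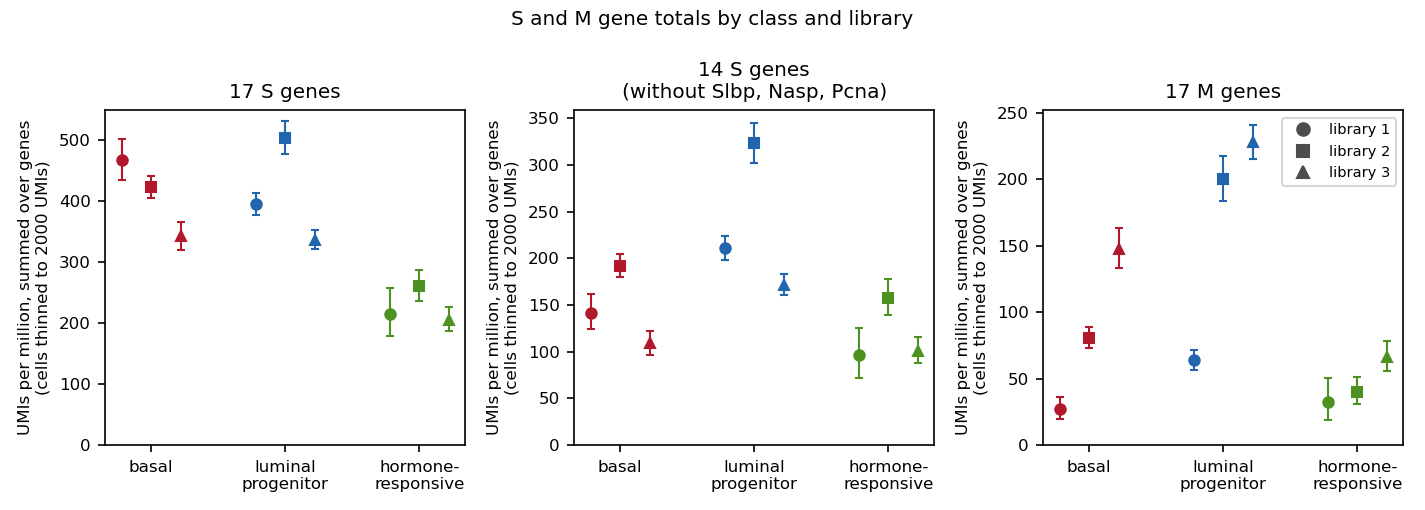
CPM, summed over the 17 S genes (left), the 14 without Slbp, Nasp and Pcna (middle) and the 17 M genes (right), in cells thinned to 2000 UMIs; points are libraries within a class and bars are 95% Poisson intervals. M totals of basal and luminal progenitor cells are lowest in library 1, at 26.9 and 63.9, while the S totals of luminal progenitor cells are highest in library 2.

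In single cells, a cell was taken as S-positive with at least 3 S UMIs from at least 2 S genes, and as S without M when it also had 0 M UMIs. Luminal progenitor cells had 5.35% (95% exact binomial interval 4.47 to 6.34), 5.96% (4.76 to 7.34) and 3.04% (2.43 to 3.75) of such cells, and the mean was 4.78% ± 1.54 (SD, n = 3). Basal cells had 7.59% (5.87 to 9.62), 5.05% (4.24 to 5.97) and 2.84% (2.01 to 3.89), with 5.16% ± 2.38 as the mean. Hormone-responsive cells had 0.71% (0.09 to 2.55), 2.60% (1.61 to 3.94) and 1.18% (0.61 to 2.05), and on average 1.5% ± 0.98. The ranges of basal and luminal progenitor cells overlapped, and each library had fewer such cells among hormone-responsive cells than among either other class. Before thinning the shares were 8.57%, 7.03% and 3.18% in basal, 10.6%, 9.46% and 6.38% in luminal progenitor and 6.11%, 6.54% and 2.40% in hormone-responsive cells.

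The basal share came mostly from the 3 abundant genes. Without Nasp, Pcna and Slbp the share of S without M was 0.98%, 1.32% and 0.15% in basal cells (mean 0.82% ± 0.60), 2.46%, 3.70% and 1.34% in luminal progenitor cells (2.50% ± 1.18) and 0.36%, 0.99% and 0.20% in hormone-responsive cells (0.51% ± 0.42). As these genes were set apart for being lower in luminal progenitor cells, the comparison of the 2 classes in these shares is shaped by that choice and is a description only. Nasp alone had a UMI in 26.3%, 18.1% and 18.7% of thinned basal cells, beside 11.5%, 13.1% and 13.7% of luminal progenitor and 7.83%, 5.32% and 5.41% of hormone-responsive cells. Mcm6, by comparison, had a UMI in 1.35%, 2.91% and 1.69% of basal and 4.97%, 8.72% and 3.69% of luminal progenitor cells. No class here is known to lack these genes, so the share that free RNA in the droplets gives was not tested.

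**Figure D4:**
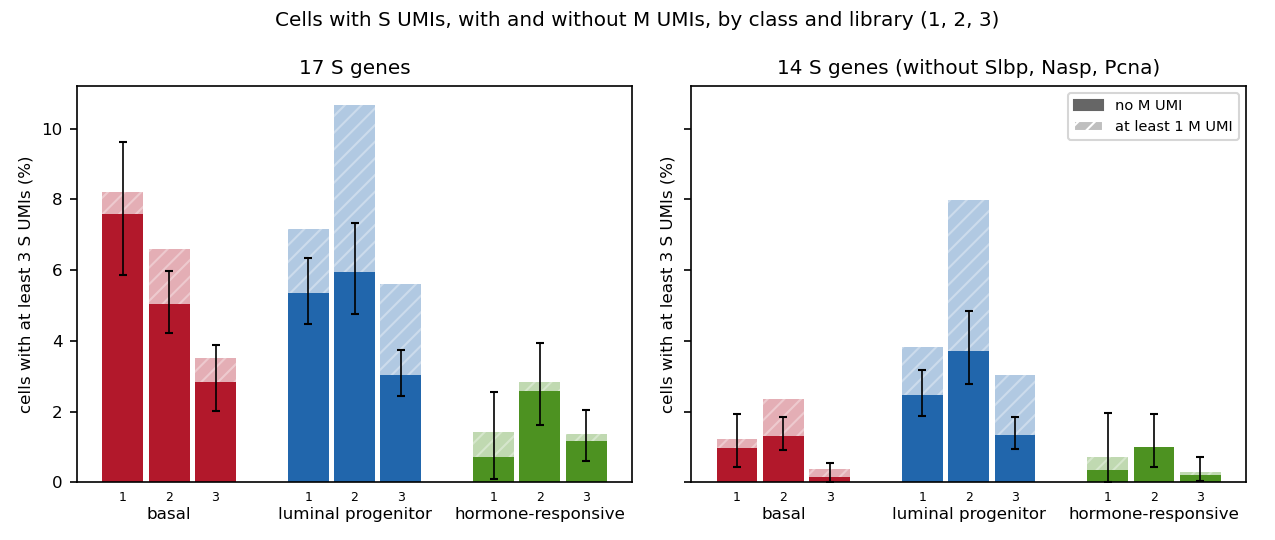
Percent of cells with at least 3 S UMIs after thinning to 2000 UMIs, by class and library (1, 2, 3), with all 17 S genes (left) and without Slbp, Nasp and Pcna (right); solid bars are cells with no M UMI, with 95% exact binomial intervals, and hatched bars are cells with at least 1. Basal bars fall from 2.84 to 7.59% on the left to 0.15 to 1.32% on the right.

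With all 17 S genes, most S-positive luminal progenitor and basal cells carried no M UMI at this depth. The share without one was 74.6% (67.3 to 80.9), 55.8% (47.4 to 64.0) and 54.2% (46.0 to 62.2) of 169, 147 and 155 S-positive luminal progenitor cells, and 92.5%, 76.5% and 80.4% of 67, 170 and 46 basal cells. Only 4, 23 and 14 hormone-responsive cells were S-positive. Without Nasp, Pcna and Slbp, 58 of 90, 51 of 110 and 37 of 84 S-positive luminal progenitor cells carried no M UMI. In libraries 2 and 3 most of those cells thus carried at least 1. In basal cells the numbers without an M UMI were 8 of 10, 34 of 61 and 2 of 5. The share of luminal progenitor cells with an M UMI rose with the S count. In luminal progenitor cells with no S UMI it was 2.30%, 11.5% and 12.7%, in those with 3 or 4 S UMIs it was 12.1%, 25.4% and 36.4%, and in those with 5 to 9 it was 46.2%, 54.1% and 66.0%. Library 1 was lowest of the 3 at each of these steps. In basal cells of library 2, the largest basal group, the same steps gave 6.16%, 12.5% and 53.8%. The rise was not seen at every step elsewhere. Basal cells of library 3 had 14.4% at 2 S UMIs and 11.6% at 3 or 4. Hormone-responsive cells of library 2 had 7.45% with no S UMI and 5.17% at 2.

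M-rich cells, with at least 3 M UMIs, numbered 27, 64 and 149 among luminal progenitor cells, or 1.15%, 4.65% and 5.39%. They made up 0.24%, 1.59% and 2.68% of basal and 0.36%, 0.12% and 1.28% of hormone-responsive cells. Between 65.5% and 73.9% of all M UMIs of luminal progenitor cells lay in them. Of these luminal progenitor cells 66.7%, 32.8% and 31.5% were also S-positive, so that in libraries 2 and 3 most M-rich cells were not.

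To ask what else marked luminal progenitor cells with S and without M UMIs, their thinned counts were summed per library (126, 82 and 84 cells) and set against cells with neither S nor M UMIs (1273, 661 and 1419 cells). The 34 genes chose the cells and were left out of the test. Of 7669 genes, 127 were called (1.66%), 87 higher (1.13%) and 40 lower (0.522%). Median depth before thinning was 3941.5, 5078 and 3757.5 UMIs in the first state and 3185, 3973 and 3594 in the second; its part in the differences was not tested. Without the library block edgeR called 0 genes, and 633 had an unadjusted p under 0.05 (smallest adjusted p 0.0618).

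S-phase genes that had no part in choosing the cells stood higher in these cells. Of 42 listed, the 26 that passed the count filter had a median log2 fold change of 1.95, beside -0.04 over all genes tested, and 19 were called higher and 0 lower. E2f1, the transcription factor that drives S-phase genes, held 10, 14 and 10 UMIs in the S-without-M cells and 5, 9 and 9 in the larger group with neither. In CPM this was 39.7, 85.4 and 59.5 against 1.96, 6.81 and 3.17, with no overlap and a log2 fold change of 3.89 (SD 0.15; edgeR adjusted p = 1.19e-06). Tk1 (3.56) and the chromatin assembly factor gene Chaf1b (3.20) followed. Dtl, part of the ubiquitin ligase that clears licensing factors in S phase, rose by 2.93. E2f1, Tk1 and Chaf1b passed the count filter through the S-without-M sums alone. Genes that entered the test in this way are high there by selection, which raises the median and the share called.

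Both states had 0 UMIs of the 17 M genes by choice, which bears on genes expressed with them. Of all genes tested, 1.13% were called higher and 0.522% lower. Of 50 other G2 and mitosis symbols listed, 15 passed the filter, with a median of 0.55, and 4 were called higher: the lamin-associated genes Lbr (1.28) and Tmpo (1.27), the Ran regulator Rangap1 (1.19) and the chromatin protein gene Hmgb2 (1.17). Of the arrest and checkpoint genes, 13 of 17 were tested, 12 were not called and the median was -0.51. The 1 called was Chek1, the kinase of the replication checkpoint, with 6, 4 and 6 UMIs in the S-without-M cells and 2, 1 and 2 in those with neither, or 23.8, 24.4 and 35.7 against 0.79, 0.76 and 0.71 CPM. Its fitted log2 fold change of 4.97 (edgeR adjusted p = 0.00011) rests on these few molecules. Chek1 also passed the count filter through the S-without-M sums alone. Without library 1 or without library 3 it did not pass the count filter and was not tested, and without the library block its edgeR adjusted p was 0.0618.

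The same comparison in basal cells, added after the luminal progenitor result was seen, used 62, 130 and 37 S-without-M cells against 340, 1173 and 626 with neither. By edgeR 0 of 6108 genes were called (0%), and 355 had an unadjusted p under 0.05. Of the other S-phase genes 9 passed the filter, with a median of 0.82. E2f1 held 2, 2 and 0 UMIs and Dtl 3, 9 and 2 in the basal S-without-M cells. In CPM, Dtl was at 24.2, 34.6 and 27 against 11.8, 17.9 and 20.8 in basal cells with neither, higher in every library. E2f1 was at 16.1, 7.69 and 0 against 2.94, 1.71 and 0.80. The genes that passed the filter differ between the classes, so the counts called are not over the same genes. Chosen without Nasp, Pcna and Slbp, such basal cells numbered only 8, 34 and 2, and the basal comparison was not run with that choice. Whether the differences themselves differed between the classes was tested with an interaction term over 7548 genes, of which 6 were called (0.0795%), 3 of them larger in luminal progenitor cells (0.0397%). One of the others is Csn3 (-1.29), whose UMIs helped to choose the luminal progenitor cells. Dtl was the 1 other S-phase gene of 23 tested whose difference was larger in luminal progenitor cells, by 2.19 on the log2 scale (edgeR adjusted p = 0.0417). Tmpo missed the threshold at 1.12 (edgeR adjusted p = 0.215) and so did E2f1 at 1.89 (edgeR adjusted p = 0.802).

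**Figure D5:**
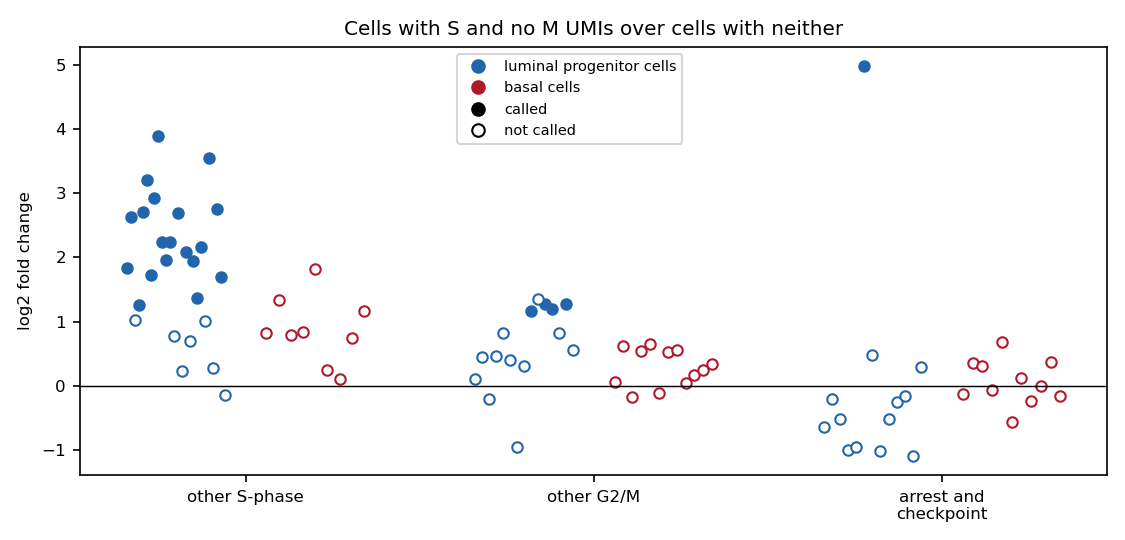
Log2 fold changes of cells with S and no M UMIs over cells with neither (vertical axis), 1 point per gene that passed the count filter, for the other S-phase, the other G2 and mitosis and the arrest and checkpoint lists; blue is luminal progenitor, red is basal, and filled points are called. In luminal progenitor cells 19 of 26 other S-phase genes are called higher. In basal cells, where fewer genes passed the filter, 0 of 9 are, with a median of 0.82.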

How the data were processed

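UMI counts were read from the authors' 3 deposited tables of raw counts (whole numbers, no normalization), made with Cell Ranger 2.1.0 on mm10, per the submitters' processing notes; no source used here names the annotation or cell calling. Barcodes with at least 500 genes and under 10% mitochondrial UMIs were kept, and the highest Scrublet scores (scanpy 1.11.5) were removed at 0.8% per 1000 barcodes. This took out 340, 646 and 982 cells. Sums per library and class (9) were fitted in 1 model with edgeR 4.0.16 (R 4.3.3; TMM, filterByExpr, two-sided, p-values adjusted over all genes tested); the 11 class genes were not tested between classes, but were kept in the tests of cell states. The scripts were tested on simulated data. Levels are TMM-normalised CPM, not corrected for length since the kit reads 3′ ends, per the labels' protocols, so genes are compared between classes and not with each other in copies; within-library log2 ratios use a prior count of 2. The classes of 1 library come from 1 suspension, which pairs the sums. In each of 9 role groups, the members with the largest and smallest absolute difference between luminal progenitor and basal cells are given by library, and of other lists the 3 largest called; other genes given with values (Mcm2, Mcm6, Pcna, Nasp, Cdk1, Cdkn2c, Wee1, Dtl and the like) were picked after their values were seen. The members and lists were chosen with earlier results of these data known. Alternatives are given in the closing section. Columns left unused numbered 0.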

Additional observations from a re-analysis of the deposited data

How the results depend on the processing

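No log2 fold change of a called member or listed gene changed sign under the alternatives run, while the order of the basal and luminal progenitor shares of S without M turned. The fit without the replicate block (the library) called 7 M genes higher in luminal progenitor than basal cells and 3 lower in hormone-responsive than basal cells, and in the comparison of S-without-M cells it called 0 genes higher and 0 lower in all, 0 of the other S-phase, 0 of the other G2 and mitosis and 0 of the arrest genes; it moved no other count by over 1.5 times. M genes higher in luminal progenitor than basal cells numbered 8 with a class gate of 10 times each other sum and 6 after thinning to 2000 UMIs, and those lower in hormone-responsive than basal cells 3 with a gate of 3 UMIs. Leaving out 1 library gave 4 to 14 for the first, 5 to 15 for M genes against hormone-responsive cells, 0 to 9 for M genes lower and 0 to 1 for S genes higher in hormone-responsive than basal cells. Members called under every alternative in which they were tested numbered 5 of 20, 15 of 26 and 4 of 11 in the 3 comparisons of classes. The 15 include Plk1, which was tested under 9 of the 14 alternatives. In S-without-M luminal progenitor cells, DESeq2 1.42.0 called 41 genes higher, 7 lower and 2 other G2 and mitosis genes; with no filter on low counts 95 genes were lower, 1 of them an arrest gene, and with cells chosen without Slbp, Nasp and Pcna 101 were lower, 1 of them an arrest gene. Leaving out 1 library gave 25 to 85 genes higher, 11 to 53 lower, 7 to 18 other S-phase, 2 to 4 other G2 and mitosis and 0 to 1 arrest genes higher. In basal cells 0 other S-phase, 0 other G2 and mitosis and 0 arrest genes were called. The mean share of S without M in basal, luminal progenitor and hormone-responsive cells was 1.18%, 1.59% and 0.19% at 1000 UMIs, 10.8%, 9.01% and 3.26% at 3000 UMIs, 14.2%, 10.6% and 6.70% with at least 2 S UMIs, 0.54%, 1.45% and 0.23% with at least 5, and 0.82%, 2.50% and 0.51% without Slbp, Nasp and Pcna. Luminal progenitor cells exceeded basal cells at 1000 UMIs, with at least 5 S UMIs and without the 3 genes, and not at 2000, at 3000 or with at least 2. The cause of these shifts was not tested, apart from depth and the S threshold, which set the share by construction.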

Other observations

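Of the 40 genes called lower in S-without-M luminal progenitor cells, 4 are given here, chosen after their values were seen; DESeq2 called 7 genes lower in all and edgeR without the library block 0. Lalba, the alpha-lactalbumin of the lactose synthase, had a log2 fold change of -1.96 (SD 0.69; edgeR adjusted p = 4.8e-10) and was lower in all 3 libraries. Lao1, a milk amino-acid oxidase, was at -1.89 and the secreted protein Spp1 at -1.73, both lower in 3 of 3 libraries, while casein Csn1s2a was at -1.44 with a within-library log2 ratio of 0 in library 1. The interaction test called Lalba and Spp1 as more negative in luminal progenitor than in basal cells, by -1.84 and -2.17 on the log2 scale. Rspo1, a secreted activator of Wnt signalling, was higher at 1.54 (edgeR adjusted p = 1.02e-06), in 3 of 3 libraries.

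The cells left unclassified were not poor in these genes. Of 370, 742 and 753 such cells with at least 2000 UMIs, 6.76%, 8.90% and 3.45% had S without M UMIs, and their summed M level was 47.3, 254 and 254 CPM.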
